A study of Homo sapiens with 11 samples.

Results

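The genes described here govern how a cell makes, takes up and exports cholesterol, and they were chosen by symbol. All 31 symbols were found among the 38557 genes of the count table, and 30 of the 31 passed the filter on low counts, as did 14683 genes in all. RNA sequencing was done on MOLM-13, an established human acute myeloid leukemia line with a rearranged KMT2A gene. Every group was grown in the same medium and exposed for 72 h. The DMSO group (4 libraries) received the diluent, the MI-503 group (4 libraries) received 1 µM of MI-503, which blocks the binding of menin to KMT2A, and the combination group (3 libraries, replicates 1, 2 and 4) received 1 µM of MI-503 together with 100 nM of PR-957, which inhibits PSMB8, a catalytic subunit of the immunoproteasome. No group received PR-957 alone among these samples, so an effect of PR-957 by itself and an effect of joint treatment cannot be told apart. A single cell line stands for the disease, and the labels do not say whether replicates were separate cultures, so p-values measure the spread between these libraries, which may be technical.

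Cells keep membrane cholesterol within narrow limits with a pair of opposing transcription programs. When sterols are low, SCAP carries the precursor of the transcription factor SREBP2 out of the endoplasmic reticulum for cleavage, and the released factor switches on the enzymes of the mevalonate and sterol pathways together with genes of sterol uptake. When sterols are high, INSIG proteins hold SCAP back, and oxysterols bind the liver X receptors (LXR), which switch on export genes such as ABCA1 and genes that limit uptake such as MYLIP. In myeloid cells, export by ABCA1 is best known from macrophages, which take up lipid in bulk. The 31 genes were divided into 25 on the SREBP2 side (7 of the mevalonate arm, 11 of the sterol arm, 4 of sterol sensing and 3 of uptake and intracellular transfer) and 6 on the LXR side (2 receptors and 4 targets).

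The promoters of 27 of the 31 genes were in the RefSeq table (build GRCh38.p14), each window running from upstream of an annotated start site to just inside the gene, and both strands were searched. Of these 27 genes, 1 (SREBF2) held the sterol regulatory letters TCACNCCAC, against 1.39% of all 27305 genes in the table. The shorter CACNCCAC, which the longer motif contains, was found in 5 of 27 (ABCA1, IDI1, INSIG1, SC5D and SREBF2), against 7.05% of all genes. CCAAT, the motif of the factor NF-Y, was found in 20 of 27, with 17 of 22 on the SREBP2 side and 3 of 5 on the LXR side, against 39.72% of all genes. The layout bound by LXR with its partner, AGGTCA repeated in 1 direction after 4 bases, was found in ABCA1 alone of the 27 when 2 mismatches were allowed, against 2.9% of all genes. This last search, with its allowance of mismatches, was set after the ABCA1 sequence had been read, so it describes that promoter and no more. A match of letters is not a bound site.

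The stretches below are shown because they carry these motifs (in capitals) in 4 genes whose levels differ in different ways: SREBF2 and INSIG1 of the sensing group, the synthesis enzyme HMGCS1 and the exporter ABCA1. All are read 5′ to 3′ on the strand of the gene and lie upstream of the RefSeq start site.
SREBF2, chr22:41832945-41833015, plus strand, TCACNCCAC and then CCAAT on the opposite strand: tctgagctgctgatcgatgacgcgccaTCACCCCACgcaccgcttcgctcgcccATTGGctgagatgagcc
INSIG1, chr7:155297658-155297728, plus strand, CACNCCAC and then CCAAT, both on the opposite strand: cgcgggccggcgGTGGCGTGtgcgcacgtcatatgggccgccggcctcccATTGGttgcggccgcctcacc
HMGCS1, chr5:43313492-43313582, minus strand, CCAAT on the opposite strand at both places: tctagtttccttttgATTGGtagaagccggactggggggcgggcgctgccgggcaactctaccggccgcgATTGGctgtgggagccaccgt
ABCA1, chr9:104928205-104928275, minus strand, the repeated letters on the opposite strand: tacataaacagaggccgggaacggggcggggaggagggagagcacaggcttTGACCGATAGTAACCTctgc
In SREBF2 the sterol regulatory letters stood at -133 to -125 from the start site and the inverted CCAAT at -106 to -102. HMGCS1, in the first of its 2 RefSeq windows, held inverted CCAAT at -155 to -151 and at -100 to -96. INSIG1 held its letters at -208 to -201 and -170 to -166. The repeated letters of ABCA1 stood at -69 to -54. The annotated gene begins upstream of the RefSeq start site used here by 77 bases for ABCA1, 106 for INSIG1 and 65 for HMGCS1. The repeated letters of ABCA1 thus lie upstream of that start site but within the annotated gene.

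Totals ran from 18891243 to 41153974 counted fragments per library. The replicate-to-replicate variation of the fit was 6.14%, as a biological coefficient of variation. Of the 3 combination libraries, replicate 1 stood apart: its counts differed from those of replicates 2 and 4 with a chi-square of 27.3 and 48.1 for each degree of freedom, against 5.77 between those 2 and 1.92 to 7.62 between libraries of the other groups. That measure grows with depth, and replicate 1 was the deepest library. On levels scaled for depth, 8.90% of genes in replicate 1 lay past 1.5-fold from the mean of the other combination libraries. The share was 6.48% and 7.23% for replicates 2 and 4, and 4.00% to 7.40% for libraries of the other groups. A combination library was set against the mean of fewer libraries than a DMSO or MI-503 library was. Shares are therefore not on equal terms between those groups. HMOX1, a stress gene, was at 7.97 CPM (counts scaled to 1000000 per library) in combination replicate 1 against 89.2 and 47.3 in replicates 2 and 4. Other stress genes differed far less. Replicate 1 was at 0.77 (DDIT3), 0.83 (HSPA1A), 0.99 (TXNRD1) and 1.10 (GADD45A) of the mean of replicates 2 and 4. For the cholesterol genes, every result that changed its call without replicate 1 is therefore given both ways. Results for all other genes are given with every library kept, and whether they hold without replicate 1 is not shown. Myeloid genes were present in every library (SPI1 at 217 to 332 CPM, CD33 at 34.2 to 44.3 CPM). The T cell marker CD3E and the epithelial marker EPCAM did not exceed 0.0918 and 0.0372 CPM.

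Per unit of exon length, FDPS and INSIG1 had the highest levels of the 31 genes in DMSO (74.6 and 70.4 FPKM, which is CPM per kilobase of exon), and ABCA1 was the lowest of the 30 tested (0.597 FPKM, rising to 2.46 in MI-503 and 2.90 in the combination). NR1H2, which encodes LXR beta, stood at 28.9 FPKM in DMSO, and NR1H3, which encodes LXR alpha, at 2.22 FPKM. ABCG1, a second LXR-driven exporter, had a count of 0 in all 11 libraries. A count of 0 allows up to 3 counts per library, or 0.0708 to 0.150 CPM, and ABCG1 was not tested. That limit covers counting error only. In the annotation used for counting, the exons of ABCG1 (11472 bases) neither overlap another gene nor recur on the main chromosomes. Why no fragment was counted was not tested, so the 0 does not show that the gene was silent. 11740 of the 38557 genes had no count in any library. Means are given below as mean ± SD of the 4 DMSO, 4 MI-503 and 3 combination libraries. Summed over all members, the level was 2040 to 2200 CPM in DMSO, 2310 to 2383 CPM in MI-503 and 1850 to 2033 CPM in the combination.

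**Figure D1:**
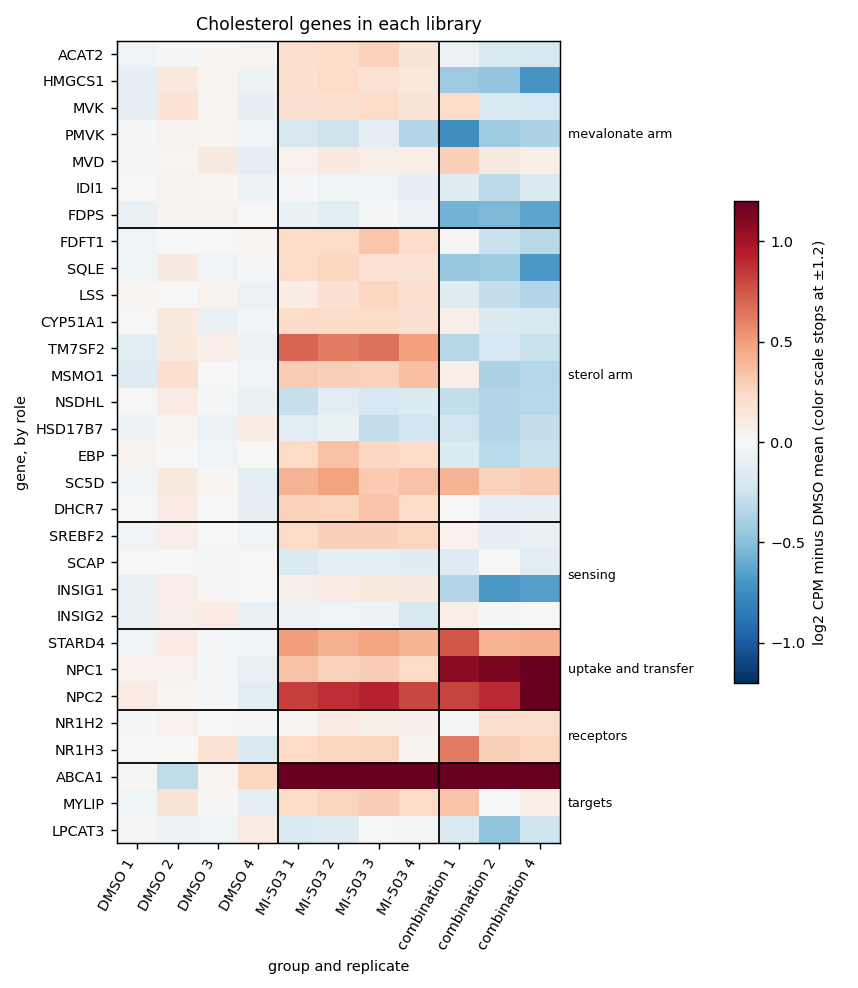
Level of each of the 30 tested genes (rows, by role) in each of the 11 libraries (columns), as log2 CPM minus the mean of the DMSO libraries. Most sterol arm rows are red in the 4 MI-503 columns and blue in combination replicates 2 and 4, whereas the NPC1, NPC2 and ABCA1 rows are red in both treated groups.

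The comparison of MI-503 with DMSO asks how these genes differed after exposure to MI-503. Of the 30 tested, 17 rose, 4 fell and 9 did not pass the test (edgeR quasi-likelihood test, Benjamini-Hochberg adjusted p under 0.05). Among all 14683 genes, 22% were called higher and 29.3% lower, so 42.9% of calls were higher (54.2% with upper-quartile scaling). The median log2 fold change was 0.20 over the members and -0.03 over all tested genes. MI-503 and DMSO libraries did not overlap for 21 of the 30, against 50.3% of all genes. Both sides leaned the same way: 15 of 25 on the SREBP2 side rose and 4 fell (median 0.20), and 2 of 5 on the LXR side rose and 0 fell (median 0.20). Without combination replicate 1, which enters this comparison through the shared scaling and spread, 22 members were higher and 3 lower. MVK, MVD, INSIG1, NR1H2 and NR1H3 were gained and HSD17B7 was lost, so 4 of 5 on the LXR side were then called higher.

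The comparison of the combination with DMSO gave 8 members higher, 14 lower and 8 not called, where 31.7% of all genes were called higher and 32.8% lower. The median was -0.12 over the members and 0.01 over all genes, and 19 of the 30 did not overlap between the groups, against 60.5% of all genes. Here the medians of the sides parted: 5 of 25 rose and 13 fell on the SREBP2 side (median -0.18), and 3 of 5 rose and 1 fell on the LXR side (median 0.15). The 3 that rose were ABCA1 and the receptors NR1H3 and NR1H2, and the NR1H2 call was lost in 7 of 19 alternative settings. Of the 3 tested LXR targets, 1 rose (ABCA1), 1 fell (LPCAT3) and 1 was not called (MYLIP). Without combination replicate 1, 7 members were higher and 16 lower.

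The comparison of the combination with MI-503 asks what the addition of PR-957 went with. It gave 1 member higher (NPC1), 16 lower and 13 not called, against 23.6% of all genes higher and 23.8% lower. The median was -0.21 over the members and 0.00 over all genes, and 19 of 30 did not overlap, against 47.6% of all genes. On the SREBP2 side 15 of 25 fell and 1 rose (median -0.29), and on the LXR side 1 of 5 fell and 0 rose (median 0.07). Without combination replicate 1, 3 members were higher and 19 lower, the SREBP2-side median was -0.40 and the LXR-side median was -0.09. The 3 comparisons share libraries in pairs, so their values are given side by side and not as separate support for one another. The direct difference between the sides was not tested.

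**Figure D2:**
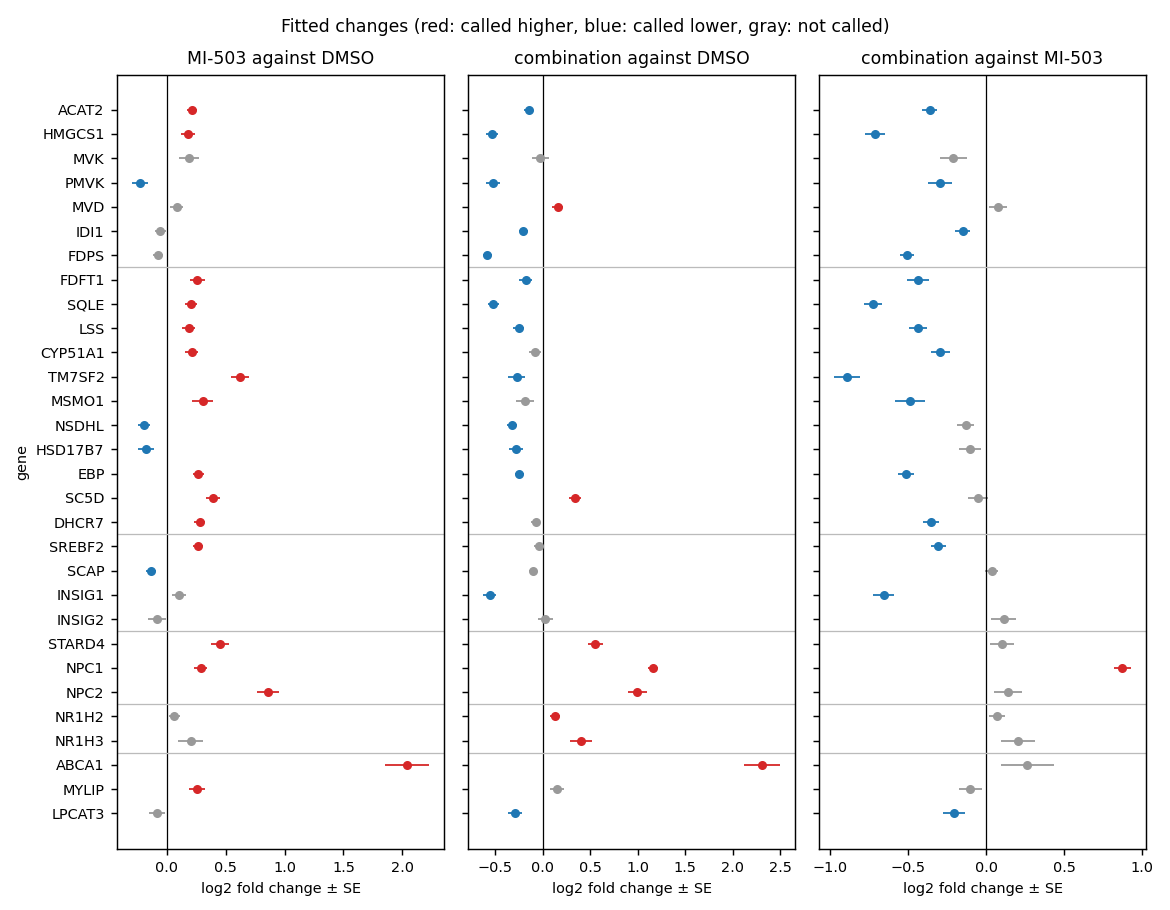
Fitted log2 fold change with its standard error for each of the 30 tested genes in the 3 comparisons, colored by call. In the comparison with MI-503, 16 genes are blue and NPC1 is the single red one, whereas in MI-503 against DMSO 17 are red. The scales of the panels differ.

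The mevalonate arm turns acetyl-CoA into farnesyl pyrophosphate. Its first steps rose slightly with MI-503 and fell in the combination. ACAT2 (acetoacetyl-CoA thiolase) was at 74.7, 76.4, 78.4 and 78.7 CPM in DMSO, at 88.7, 90.0, 93.1 and 85.7 in MI-503, and at 73.4, 67.8 and 67.0 in the combination. No value of one group overlapped another. It rose with MI-503 (log2 fold change 0.22, SE 0.04, adjusted p = 4.65e-04), was lower in the combination than in DMSO (-0.15, SE 0.05, adjusted p = 0.0107), and fell against MI-503 (-0.36, SE 0.05, adjusted p = 7.77e-06). The difference from DMSO in the combination was not called with upper-quartile scaling, without a filter or with a stricter one (adjusted p = 0.157, 0.0844 and 0.0533).

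HMGCS1, the HMG-CoA synthase of the cytosol and the gene with paired inverted CCAAT letters shown above (chr5:43287470-43313477 on hg38, minus strand), was at 136, 159, 149 and 139 CPM in DMSO, at 166, 171, 164 and 159 in MI-503, and at 107, 105 and 89.3 in the combination. The highest DMSO library came just below the lowest MI-503 library, and the combination lay clear below both. The rise with MI-503 was small (0.18, SE 0.06, adjusted p = 0.0156) and lost its call without DMSO replicate 1 (adjusted p = 0.0643) or 4 (0.0556). The fall in the combination was larger, by 0.53 on the log2 scale against DMSO (adjusted p = 1.41e-06) and by 0.71 against MI-503 (SE 0.06, adjusted p = 1.67e-07).

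FDPS, which makes farnesyl pyrophosphate, was at 123, 134, 134 and 131 CPM in DMSO, 123, 120, 128 and 124 in MI-503, and 87.8, 89.8 and 84.2 in the combination. DMSO and MI-503 overlapped (log2 fold change -0.08, adjusted p = 0.144), and every combination library was lower, by 0.58 on the log2 scale against DMSO (SE 0.05, adjusted p = 7.72e-09) and by 0.51 against MI-503 (adjusted p = 1.7e-07). PMVK (phosphomevalonate kinase) fell in all 3 comparisons, from 60.2 ± 1.8 CPM in DMSO to 51.5 ± 3.5 with MI-503 and 42.2 ± 5.6 in the combination. Its log2 fold changes were -0.23, -0.52 and -0.29, with adjusted p of 0.0109, 1.1e-05 and 0.00394, the first being 0.0501 with upper-quartile scaling. IDI1, the isomerase that readies the building block for chain growth, did not pass with MI-503 (-0.05) and was lower in the combination (-0.21 against DMSO, adjusted p = 0.00119, and -0.15 against MI-503, adjusted p = 0.0156).

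MVD and MVK, the decarboxylase and the first kinase of this arm, moved least clearly. MVD was at 69.9 ± 4.5 CPM in DMSO, 73.9 ± 1.4 with MI-503 and 77.9 ± 6.3 in the combination. It was called in 1 comparison, the combination against DMSO (0.16, adjusted p = 0.0226), and lost that call without DMSO replicate 1 (adjusted p = 0.0537) or 4 (0.0821) or combination replicate 1 (0.0855). With MI-503 its value of 0.08 (adjusted p = 0.218) became 0.13 and passed without combination replicate 1 (adjusted p = 0.0151), and it also passed with only the 2 groups compared (0.0151) and with upper-quartile scaling (0.0437). MVK was at 49.8 CPM in combination replicate 1 and at 37.7 and 36.9 CPM in replicates 2 and 4, against 39.5 to 47.6 in DMSO and 47.1 to 49.7 in MI-503. It passed none of the 3 tests (log2 fold changes 0.19, -0.02 and -0.21, adjusted p = 0.0695, 0.824 and 0.0594). Without combination replicate 1 it was called in all 3 (adjusted p = 5.91e-04, 0.0294 and 2.04e-05), with values of 0.23, -0.17 and -0.40. It was also called for MI-503 against DMSO without DMSO replicate 2 (adjusted p = 0.0257), combination replicate 2 (0.0288) or combination replicate 4 (0.0148), and against MI-503 without DMSO replicate 2 (0.0491). With all libraries kept, it was called with MI-503 under RLE or upper-quartile scaling (0.0376 and 0.0261) and with DESeq2 (0.0328). The same held without a filter (0.00256), with the stricter one (0.0418) and with only the 2 groups compared (6.41e-04). Against MI-503 it was called with RLE scaling (0.04), without a filter (0.00627) and with DESeq2 (0.0309).

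The sterol arm joins farnesyl units into squalene and converts lanosterol to cholesterol. With MI-503, 9 of its 11 genes rose and 2 fell (median log2 fold change 0.26). In the combination against MI-503, 8 fell and 0 rose (median -0.44), and against DMSO 7 fell and 1 rose (median -0.25). TM7SF2, a sterol C14 reductase, differed most of this arm between MI-503 and either other group. It was at 10.5, 12.4, 12.1 and 10.9 CPM in DMSO, at 18.6, 17.5, 18.1 and 16.1 in MI-503, and at 9.04, 9.98 and 9.48 in the combination. All MI-503 libraries were above all others. The rise was 1.53-fold (log2 0.62, SE 0.08, adjusted p = 3.82e-06). The fall against MI-503 was 0.89 on the log2 scale (SE 0.08, adjusted p = 2.33e-07). The combination was also below DMSO (-0.28, adjusted p = 0.0098), which without combination replicate 1 did not pass (adjusted p = 0.0564).

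SQLE, squalene epoxidase and one of the rate-controlling enzymes of the pathway, was at 97.3, 109, 98.0 and 99.1 CPM in DMSO, 117, 120, 113 and 113 in MI-503, and 73.4, 74.8 and 62.5 in the combination. The 3 groups did not overlap, with MI-503 highest and the combination lowest. It rose with MI-503 (0.20, SE 0.05, adjusted p = 0.00462), and fell by 0.52 against DMSO (adjusted p = 7.96e-07) and by 0.72 against MI-503 (SE 0.06, adjusted p = 6.01e-08) on the log2 scale. EBP, the sterol isomerase, had the same order: 52.3 ± 1.1 CPM in DMSO, 62.9 ± 2.7 with MI-503 and 44.0 ± 2.4 in the combination, with log2 fold changes of 0.27, -0.25 and -0.51 and adjusted p of 1.44e-04, 4.63e-04 and 5.04e-07. So did LSS, which closes the lanosterol rings, at 38.7 ± 1.3, 44.0 ± 2.1 and 32.4 ± 2.4 CPM (log2 fold changes 0.18, -0.25 and -0.44, adjusted p = 0.00922, 0.00124 and 1.32e-05). Of the 96-base exon windows of LSS, 88.5% recur on an alternate contig and 0% elsewhere on the main chromosomes, so its count is uncertain if that contig was among the sequences aligned to.

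FDFT1, squalene synthase, rose with MI-503 (0.26, adjusted p = 0.00236) and fell against MI-503 (-0.44, adjusted p = 5.35e-05). Against DMSO its value of -0.18 passed (adjusted p = 0.0293), but not when any of DMSO replicates 2, 3 and 4 or combination replicates 2 and 4 was left out (adjusted p = 0.0504 to 0.154), nor with upper-quartile scaling, the stricter filter or only those 2 groups (0.185, 0.0945 and 0.0646). CYP51A1 (lanosterol demethylase), MSMO1 (methylsterol monooxygenase) and DHCR7 (the reductase of the last step of one branch) rose with MI-503 by 0.21, 0.30 and 0.28 on the log2 scale (adjusted p = 0.00503, 0.00842 and 7.01e-05). All 3 fell against MI-503, by 0.29, 0.49 and 0.35 (adjusted p = 8.07e-04, 4.7e-04 and 1.8e-05), and none passed against DMSO (-0.08, -0.19 and -0.07). Without combination replicate 1, CYP51A1 (-0.16, adjusted p = 0.00844) and MSMO1 (-0.34, adjusted p = 5.55e-04) passed against DMSO as well.

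The 3 other genes of the arm ran differently. SC5D, which adds the C5 double bond, was at 24.6, 27.5, 25.8 and 23.5 CPM in DMSO, 33.6, 35.3, 31.6 and 32.3 in MI-503, and 33.9, 30.7 and 31.2 in the combination. Both treated groups were above every DMSO library and overlapped each other. It rose with MI-503 (0.39, SE 0.06, adjusted p = 3.86e-05) and in the combination (0.34, SE 0.06, adjusted p = 1.82e-04), and the combination against MI-503 was -0.05 (adjusted p = 0.524). NSDHL and HSD17B7, which work together in removing methyl groups at C4, fell with MI-503 (-0.19 and -0.18, adjusted p = 0.00368 and 0.0387) and in the combination against DMSO (-0.33 and -0.28, adjusted p = 5.1e-05 and 0.00305). The HSD17B7 call with MI-503 was lost in 14 of 19 alternative settings, among them each fit that left out 1 of these: replicates 2 and 4 of DMSO, replicates 1, 3 and 4 of MI-503, and all 3 combination libraries (adjusted p = 0.0529 to 0.121). Of its 96-base exon windows, 20.8% recur elsewhere on the main chromosomes, so its count is uncertain. Against MI-503, NSDHL (-0.13, adjusted p = 0.056) and HSD17B7 (-0.10, adjusted p = 0.264) did not pass. NSDHL did without DMSO replicate 2 (adjusted p = 0.0461), MI-503 replicate 1 (0.0347), combination replicate 1 (0.0192) or combination replicate 4 (0.0368). It also did with RLE scaling (adjusted p = 0.0331) and with DESeq2 (0.0429).

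Among the sensing genes, SREBF2 (chr22:41833105-41907308 on hg38, plus strand), which encodes SREBP2 itself, was at 295, 321, 306 and 295 CPM in DMSO, 357, 371, 371 and 362 in MI-503, and 315, 283 and 287 in the combination. MI-503 was above every other library, and the combination overlapped DMSO. It rose with MI-503 (0.26, SE 0.04, adjusted p = 7.73e-05) and fell against MI-503 (-0.31, SE 0.05, adjusted p = 4.81e-05), with -0.04 against DMSO (adjusted p = 0.44). INSIG1, a target of SREBP2 that in turn restrains it (chr7:155297772-155310235, plus strand), was at 212, 236, 225 and 223 CPM in DMSO, 235, 240, 244 and 242 in MI-503, and 176, 138 and 141 in the combination. Combination replicate 1 lay above replicates 2 and 4 but below every library of the other groups. INSIG1 fell by 0.56 against DMSO (SE 0.07, adjusted p = 1.3e-06) and by 0.66 against MI-503 (SE 0.07, adjusted p = 6.96e-07). With MI-503 its value was 0.10 (adjusted p = 0.186), which passed without combination replicate 1 (adjusted p = 0.00204) or 4 (0.0464). It also passed with upper-quartile scaling (adjusted p = 0.0472) and with only the 2 groups compared (0.00159).

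INSIG2, a paralog of INSIG1 that depends less on SREBP2, passed no test (log2 fold changes -0.09, 0.02 and 0.11) at means of 11.4, 10.7 and 11.5 CPM. SCAP, the escort of SREBP2, was at 124 ± 0.71 CPM in DMSO, 113 ± 2.2 with MI-503 and 116 ± 6.4 in the combination. Its small fall with MI-503 (-0.13, adjusted p = 0.00926) did not pass without combination replicate 4 (adjusted p = 0.053), with upper-quartile scaling (0.13) or without a filter (0.0805). Against DMSO the combination gave -0.10 (adjusted p = 0.0537), which passed without combination replicate 2 (adjusted p = 0.0111) or with limma-voom (0.0434).

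**Figure D3:**
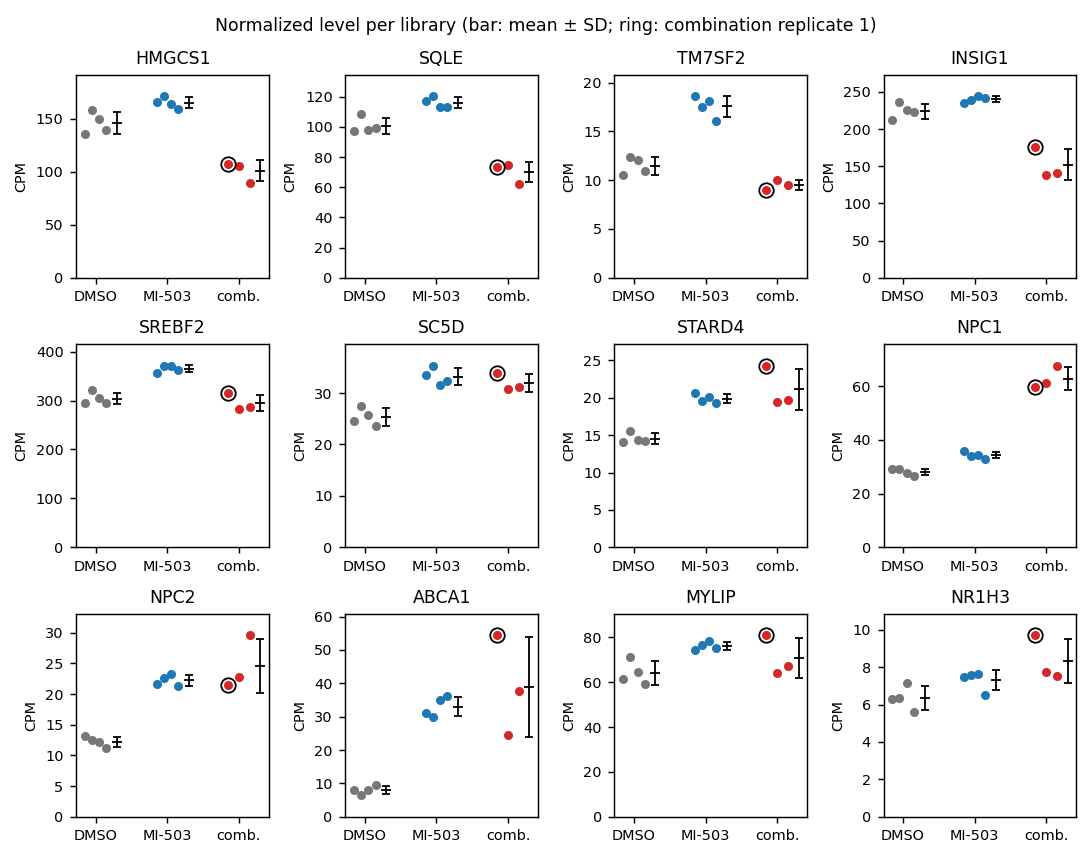
CPM of 12 members in each library, with group mean and SD as bars beside the points and a ring around combination replicate 1. SQLE, HMGCS1 and INSIG1 are lowest in the combination, NPC1 is highest there at 59.6 to 67.7 CPM, and the 3 combination points of ABCA1 spread from 24.6 to 54.4 CPM.

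The uptake and transfer genes ran against most synthesis enzymes in the combination (MVD and SC5D rose too): all 3 rose in MI-503 and all 3 rose in the combination against DMSO, with medians of 0.45 and 1.00. Of all genes, 22% and 31.7% were called higher in these comparisons. NPC1 is the membrane protein that exports cholesterol from lysosomes (chr18:23506184-23586506, minus strand). It was at 29.1, 29.1, 27.7 and 26.4 CPM in DMSO, 35.9, 33.9, 34.5 and 33.1 in MI-503, and 59.6, 61.4 and 67.7 in the combination. The 3 groups did not overlap, with the combination highest. NPC1 was 1.22-fold higher with MI-503 (log2 0.29, SE 0.05, adjusted p = 3.12e-04), 2.24-fold higher in the combination than in DMSO (log2 1.16, SE 0.06, adjusted p = 2.69e-11), and 1.83-fold higher than in MI-503 (log2 0.87, SE 0.06, adjusted p = 2.32e-09).

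NPC2, the soluble partner that hands cholesterol to NPC1 (chr14:74479935-74493512, minus strand), was at 13.1, 12.5, 12.1 and 11.2 CPM in DMSO, 21.7, 22.7, 23.3 and 21.3 in MI-503, and 21.4, 22.7 and 29.6 in the combination. Both treated groups were above DMSO, and they overlapped each other. It rose with MI-503 (log2 0.86, SE 0.09, adjusted p = 8.71e-07) and in the combination (1.00, SE 0.10, adjusted p = 1e-07). Against MI-503 the value was 0.14 (adjusted p = 0.231), it was 0.22 without combination replicate 1 (adjusted p = 0.0362) and -0.06 without combination replicate 4. STARD4, a cytosolic sterol carrier, was at 14.1, 15.6, 14.3 and 14.2 CPM in DMSO, 20.6, 19.5, 20.1 and 19.3 in MI-503, and 24.3, 19.4 and 19.7 in the combination. It rose in both treated groups (0.45, adjusted p = 9.32e-05, and 0.55, adjusted p = 1.14e-05), and the 0.10 between them (adjusted p = 0.314) was -0.05 without combination replicate 1. Other genes overlap 70.7% of the exon bases of STARD4 (CAMK4 and STARD4-AS1), and the counting ignored strand and dropped fragments that fell on more than one gene, so its level is uncertain. The overlap was smaller for ACAT2 (30.3%), FDPS (27.2%), SREBF2 (26.9%) and CYP51A1 (25.9%). Their levels, above all in FPKM, are uncertain in the same way.

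On the LXR side, ABCA1, which loads cholesterol onto apolipoprotein A-I (chr9:104781006-104928232, minus strand), had the largest change of the 30 members in both comparisons with DMSO. It was at 8.03, 6.43, 8.11 and 9.48 CPM in DMSO, 31.1, 29.9, 34.9 and 36.2 in MI-503, and 54.4, 24.6 and 37.8 in the combination. Every treated library was above every DMSO library, and the combination libraries lay on both sides of the MI-503 libraries. It was 4.12-fold higher with MI-503 (log2 2.04, SE 0.19, adjusted p = 1.39e-07) and 4.94-fold higher in the combination (log2 2.31, SE 0.19, adjusted p = 1.49e-08). The combination against MI-503 gave 0.26 (SE 0.17, adjusted p = 0.215), with -0.09 without combination replicate 1 and 0.45 (adjusted p = 0.00726) without combination replicate 2, so the direction of that difference turned on single libraries. Its call also depended on the filter: with all libraries and no filter, the value of 0.27 passed (adjusted p = 8.29e-04).

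MYLIP, the ubiquitin ligase that degrades lipoprotein receptors, rose with MI-503, from 64.1 ± 5.2 to 76.3 ± 1.8 CPM (log2 0.25, adjusted p = 0.00441). In the combination it was at 80.9, 64.2 and 67.4 CPM, replicate 1 being above the MI-503 libraries and the other two below them. Against DMSO the value was 0.15 (adjusted p = 0.0744), which passed without DMSO replicate 2 (adjusted p = 0.0195), combination replicate 2 (0.0211) or combination replicate 4 (0.0405). It also passed with upper-quartile scaling (adjusted p = 0.0169), without a filter (0.00764) and with the stricter filter (0.0269). Against MI-503 it was -0.10 (adjusted p = 0.263), and -0.24 without combination replicate 1 (adjusted p = 0.00172). LPCAT3, which remodels membrane phospholipids, was -0.08 with MI-503 (adjusted p = 0.331) and fell in the combination against DMSO (-0.29, adjusted p = 0.00241). Its fall against MI-503 (-0.21, adjusted p = 0.028) was lost without MI-503 replicate 3 (adjusted p = 0.0821) or 4 (0.0726) or combination replicate 2 (0.0659), and with only the 2 groups compared (0.0518). EMG1 overlaps 67.5% of the exon bases of LPCAT3.

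Of the receptors, NR1H3 was at 6.31, 6.34, 7.16 and 5.60 CPM in DMSO, 7.45, 7.58, 7.63 and 6.50 in MI-503, and 9.70, 7.72 and 7.55 in the combination. All combination libraries were above all DMSO libraries (log2 0.41, SE 0.11, adjusted p = 0.00487). With MI-503 the value was 0.20 (adjusted p = 0.133), which passed without combination replicate 1 (adjusted p = 0.03) or with only the 2 groups compared (0.0326). Against MI-503 it was 0.20 (adjusted p = 0.143). NR1H2 differed least of the LXR side in the comparisons with DMSO (0.06, adjusted p = 0.305, and 0.13, adjusted p = 0.0366). Leaving out any of replicates 1, 3 and 4 of DMSO, or of replicates 2 and 4 of the combination, ended the second call (adjusted p = 0.0663 to 0.195), as did limma-voom (0.0519) and a fit of only those 2 groups (0.0636). Without combination replicate 1, NR1H2 passed with MI-503 (adjusted p = 0.0175) and against MI-503 (adjusted p = 0.0371). With MI-503 it also passed under upper-quartile scaling (adjusted p = 0.0384) and with only the 2 groups compared (0.0176).

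**Figure D4:**
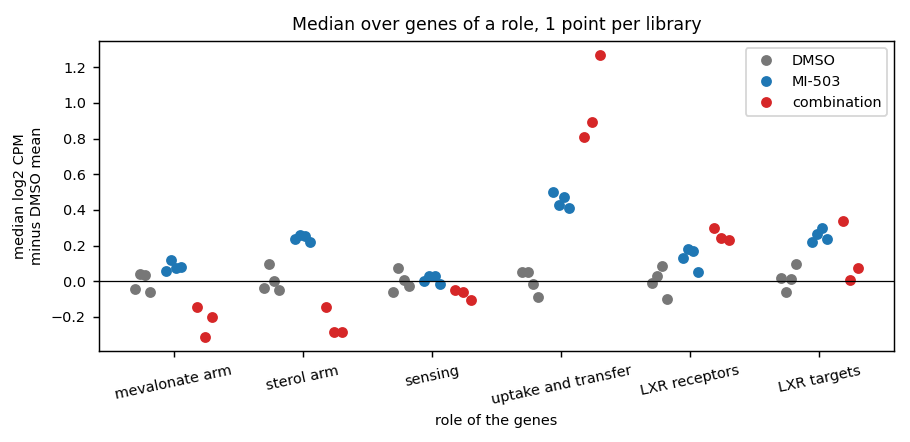
Median over the tested genes of each role of log2 CPM minus the DMSO mean, with 1 point per library. The sterol arm lies at 0.22 to 0.26 in the MI-503 libraries and at -0.29 to -0.14 in the combination libraries, whereas uptake and transfer lies at 0.41 to 0.50 and at 0.81 to 1.27.

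By library, the SREBP2-side median relative to DMSO was 0.17 to 0.23 in MI-503 and -0.07, -0.20 and -0.20 in combination replicates 1, 2 and 4. The LXR-side median was 0.06 to 0.27 in MI-503 and 0.34, 0.20 and 0.21 in the combination. Replicate 1 thus had the highest median of the combination libraries on both sides.

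Combination replicate 1 was then set against the mean of replicates 2 and 4, gene by gene and with no test, since it is 1 library. ABCA1 alone of the 30 members lay past 1.5-fold, at 1.78-fold higher (0.84 in log2 CPM), while 5.17% of all genes lay past 1.5-fold higher and 3.73% past 1.5-fold lower. Replicates 2 and 4 themselves differed by 0.62 in log2 CPM for ABCA1, replicate 4 being higher. MSMO1 (1.35-fold), MVK (1.33-fold), NR1H3 (1.27-fold), INSIG1 (1.26-fold), STARD4 and FDFT1 (1.24-fold each) followed. For these 6 the other two libraries differed from each other by at most 0.0716 in log2 CPM. At the other end PMVK was at 0.79 of the mean of replicates 2 and 4, NPC2 at 0.826 and NR1H2 at 0.86. Replicate 1 was the highest of the 3 in 22 of 30 members (18 on the SREBP2 side and 4 on the LXR side), between the others in 2 and the lowest in 6. Over all genes it was the highest in 38.7% and the lowest in 38.4%. HMGCS1, SQLE, FDPS and TM7SF2 lay below every MI-503 and every DMSO library in replicate 1 as in the other two, and NPC1 lay above them.

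**Figure D5:**
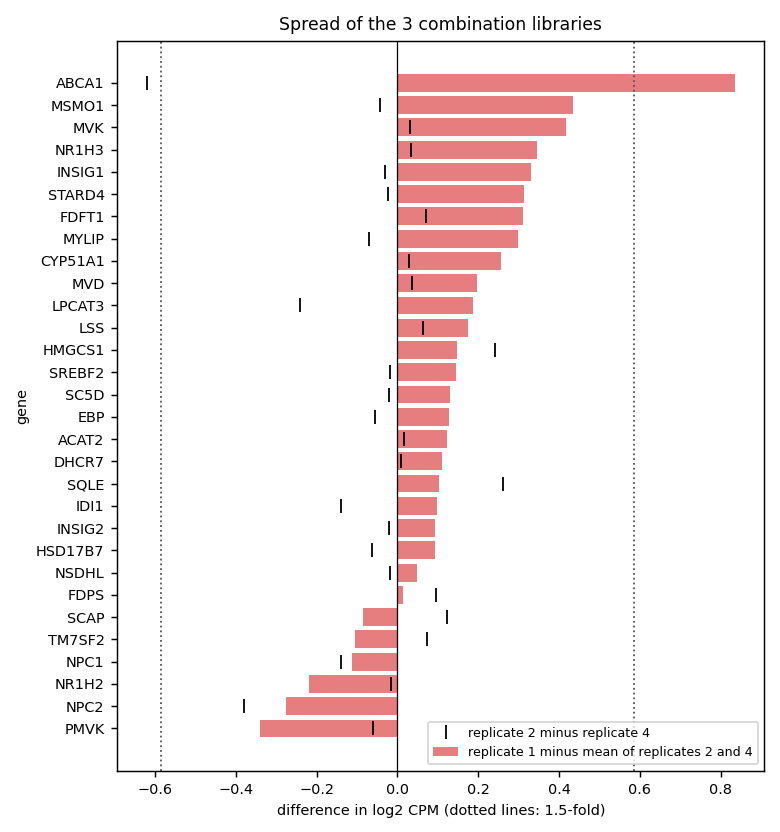
Difference in log2 CPM between combination replicate 1 and the mean of replicates 2 and 4 (bars) for the 30 tested genes, with the difference of replicates 2 and 4 as ticks and 1.5-fold as dotted lines. The ABCA1 bar, at 0.84, is the only one past a dotted line, and its tick at -0.62 is past the other.

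The neighboring genes of the pathway were counted from lists, with all 11 libraries kept. Over all genes, 22% were called higher and 29.3% lower with MI-503. The shares were 31.7% and 32.8% in the combination against DMSO, and 23.6% and 23.8% against MI-503. They apply beside the counts of each of these lists. Of 9 genes of SREBP maturation and sterol-regulated degradation, 3 rose and 2 fell with MI-503, 2 rose and 5 fell in the combination against DMSO, and 2 rose and 5 fell against MI-503. TMEM97, a sterol-responsive protein that binds NPC1, fell in all 3 (-0.22, -0.95 and -0.73, adjusted p = 0.00216, 4.68e-10 and 4.97e-08). The ubiquitin ligase gene RNF145 rose with MI-503 (0.29, adjusted p = 0.00424) and fell in the combination (-0.40 against DMSO and -0.68 against MI-503, adjusted p = 5.32e-04 and 4.66e-06). The proteases that cut SREBP parted: MBTPS1 was -0.02 with MI-503 and rose in the combination (0.32 and 0.34, adjusted p = 1.68e-05 and 2.08e-05), and MBTPS2 was -0.10 and fell (-0.48 and -0.38, adjusted p = 1.07e-05 and 2.75e-04).

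Of the non-sterol isoprenoid branch, 7 of 8 genes were tested, of which 0 rose and 6 fell with MI-503, 1 rose and 4 fell in the combination against DMSO, and 2 rose and 3 fell against MI-503. DHDDS, a subunit of the dolichol-making transferase, was at 29.2 ± 1.4 CPM in DMSO, 29.0 ± 1.2 with MI-503 and 51.3 ± 2.6 in the combination, where it rose (0.81 and 0.82, adjusted p = 1.63e-09 and 5.71e-09). NUS1, its partner subunit, fell in all 3 comparisons (-0.30, -0.49 and -0.19, adjusted p = 8.41e-05, 4.58e-07 and 0.00776), as did PDSS1 of ubiquinone synthesis (-0.41, -0.84 and -0.43, adjusted p = 2.4e-04, 1.41e-07 and 4.81e-04).

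Of the genes of esterification, hydrolysis and transfer, 10 of 11 were tested, and 3 rose and 2 fell with MI-503, 3 rose and 2 fell in the combination against DMSO, and 4 rose and 2 fell against MI-503. LIPA, the lysosomal acid lipase that frees cholesterol from its esters, rose from 90.4 ± 2.7 CPM in DMSO to 141 ± 5.1 with MI-503 and 133 ± 7.2 in the combination (log2 0.64 and 0.55, adjusted p = 5.14e-09 and 1.84e-08). GRAMD1B, a carrier of plasma membrane cholesterol, rose in both (0.76 and 0.83, adjusted p = 1.81e-07 and 3.71e-08). The receptor genes LRP8 and VLDLR parted in the combination against MI-503 (0.40 and -0.40, adjusted p = 5.55e-06 and 6.18e-05).

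Of the other LXR partners and targets, 8 of 9 were tested, and 4 rose and 1 fell with MI-503, 3 rose and 2 fell in the combination against DMSO, and 2 rose and 2 fell against MI-503. The LXR targets SMPDL3A (0.90, 1.54 and 0.64, adjusted p = 1.73e-05, 1.58e-08 and 3.13e-04) and PLTP (0.82, 1.48 and 0.66, adjusted p = 1.11e-04, 6.53e-08 and 4.14e-04) rose in all 3 comparisons, from low levels of 3.78 and 1.38 CPM in DMSO. The corepressor gene NCOR1 fell with MI-503 (-0.29, adjusted p = 1.28e-05).

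Genes of cell state moved with the same groups. Of all genes, 22% were called higher and 29.3% lower with MI-503, and 31.7% and 32.8% in the combination against DMSO. Against MI-503 the shares were 23.6% and 23.8%. All 5 tested monocyte and macrophage markers of 9 rose with MI-503, and 4 of 5 rose in the combination against DMSO. The remaining marker was not called there (log2 fold change -0.19). In the combination against MI-503, 4 rose and 1 fell (-0.53). Their summed level was 119 to 136 CPM in DMSO, 232 to 250 in MI-503 and 292 to 462 in the combination. CSF1R, the receptor of a macrophage growth factor, rose from 6.48 to 34.8 and 55.5 CPM. The macrophage marker MRC1 was at 0 in 10 of 11 libraries, CD14 did not exceed 0.483 CPM, and these 2 with CD163 and MSR1 were the untested ones. Of 6 proliferation genes, 5 fell with MI-503 and all 6 fell in the combination against DMSO, with medians of -0.29 and -0.93. All 6 also fell in the combination against MI-503. Their summed level was 2217 to 2530 CPM in DMSO, 1939 to 2110 in MI-503 and 1259 to 1438 in the combination. Of 5 stress genes, 0 rose and 1 fell with MI-503, 4 rose in the combination against DMSO, and all 5 rose against MI-503. The part of these shifts in the levels of the cholesterol genes was not tested. In bulk RNA, fewer cells of a kind and less RNA per cell cannot be told apart.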

How the data were processed

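Poly(A) RNA of 11 MOLM-13 libraries was sequenced. The authors trimmed reads with Trimmomatic 0.39, aligned them to hg38 with STAR 2.7.10a and counted fragments per RefSeq gene with featureCounts 2.0.1, and they deposited raw counts without strand, multi-mapping fragments or fragments on several genes. The joined and the single-library count tables differed in 0 cells, and 0 per-sample columns were left unused. The deposited tables of DESeq2 fold changes and p-values were not used.

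Counts were tested in edgeR 4.0.16 (R 4.3.3): genes with enough counts by filterByExpr (minimum 10), TMM factors, 1 quasi-likelihood model with a mean per group over all 11 libraries (8 residual degrees of freedom), two-sided, adjusted over all 14683 genes, called under 0.05. CPM used TMM-scaled totals, log2 CPM a prior count of 0.5, and FPKM the merged exon length of the annotation used in the counting. DESeq2 1.42.0 and limma-voom (limma 3.58.1) were alternatives, with other scaling, other filters, a replicate block, only the 2 groups compared, a threshold of 0.01 and each library left out in turn. The script was tested on simulated counts.

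The members and lists were chosen with earlier results of these data known. All 31 members are named, and of each other list up to 2 genes per comparison with the smallest adjusted p among those of at least 1 CPM on average. Some genes that this rule names are not reported here. HMOX1, SPI1, CD33, CD3E, EPCAM, MRC1 and CD14 were added after their values were seen, as were the other stress genes set beside HMOX1. Depth (18891243 to 41153974 fragments) limits precision for genes of a few CPM. Intervals for a count of 0 cover counting error only. Figures were drawn with matplotlib 3.10.9 and numpy 2.4.6.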

Additional observations from a re-analysis of the deposited data

Results flagged for a closer look

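In 60 groups of 4 libraries (30 members in DMSO and in MI-503), 5 held a library whose gap to the nearest other was above the 95% critical ratio of Dixon, and chance flags about 1 in 20 groups. FDFT1 was at 56.6 CPM in MI-503 replicate 3, against 52.5 to 52.8 in the others. SQLE was at 109 CPM in DMSO replicate 2, against 97.3 to 99.1. CYP51A1 was at 102 CPM in MI-503 replicate 4, against 105 to 106. INSIG2 was at 9.94 CPM in MI-503 replicate 4, against at least 10.9, and NR1H3 was at 6.50 CPM in the same library, against 7.45 to 7.63. The combination group, with 3 libraries, was too small for this rule.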

How the results depend on the processing

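With MI-503 against DMSO, 17 members were higher, 21 with upper-quartile factors, 22 with only the 2 groups compared and 16 to 22 with 1 library left out (22 without combination replicate 1), and 4 were lower, but 1 with upper-quartile factors, 2 without a filter, 2 at an adjusted p under 0.01, and 2 to 4 with 1 library left out (2 without combination replicate 4). The SREBP2-side median of 0.20 was 0.27 with upper-quartile factors, 0.25 with only the 2 groups compared, and 0.19 to 0.25 with 1 library left out. For the combination against DMSO that median of -0.18 was -0.11 with upper-quartile factors and -0.22 to -0.11 with 1 library left out. Against MI-503, 1 member was higher, but 2 without a filter and 1 to 3 with 1 library left out. The medians there ran from -0.40 to -0.29 (SREBP2 side) and from -0.0888 to 0.0841 (LXR side), both lowest without combination replicate 1. No member was past 2-fold in combination replicate 1 (0, against 1 past 1.5-fold).

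Signs reversed for values that were not called in the reported fit, though MVK against DMSO, and NPC2, NR1H2 and ABCA1 against MI-503, were called with some 1 library left out. IDI1 with MI-503 was 0.00705 (log2) with upper-quartile factors. For the combination against DMSO, MVK was 0.0452 with upper-quartile factors, 0.00101 without a filter and 0.0198 with the stricter filter, SREBF2 was 0.0256 with upper-quartile factors and 0.00114 with the stricter filter, and with 1 library left out MVK ran from -0.17 to 0.0572 and INSIG2 from -0.00364 to 0.0559. Against MI-503 with 1 library left out, NPC2 ran from -0.0562 to 0.22, MVD from -0.0214 to 0.0915, NR1H2 from -0.0118 to 0.12, SCAP from -0.0463 to 0.0445, STARD4 from -0.0478 to 0.12 and ABCA1 from -0.0888 to 0.45. The cause was not tested. Of all genes called with MI-503, 42.9% were higher, and 54.2% with upper-quartile factors.

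Replicate numbers did not pair the libraries: deviations of same-numbered libraries correlated at -0.10 to 0.14. With the replicate block, 17 members were higher and 4 lower with MI-503, 8 and 14 in the combination against DMSO, and 1 and 16 against MI-503, so no count moved. Depth limits NR1H3, ABCA1, INSIG2, TM7SF2 and NPC2 most, at about 6 to 13 CPM in DMSO.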
